A study of Mus musculus with 12 samples.

Results

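Mrgprg, Itgb7 and Daglb are 3 of the 27998 genes counted in single cells of the mouse mammary gland, and they were singled out because their levels in Dpp4 Pi16 fibroblasts were much lower in mice given 17β-estradiol (E2) than in mice given no hormone. Levels are given as CPM, the unique molecular identifiers (UMIs) of a gene per 1000000 UMIs of the summed cells. Among the 2734 genes tested with a mean of at least 50 CPM in these cells, Mrgprg had the lowest log2 difference, Daglb the next and Itgb7 the fourth. At this limit the third gene, Tgfbi, had a difference of -1.24 and the fifth, Gm12840, of -1.16, beside -1.22 for Itgb7. Over all 12726 genes tested Mrgprg ranked 2, Daglb 24 and Itgb7 49. These values chose the members, so the E2 difference in Dpp4 Pi16 fibroblasts is given below as a description without a test.

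The glands came from C57BL/6J mice aged 43 weeks, in 12 groups with 1 library each. Except for the Intact group, all mice had received 4-vinylcyclohexene diepoxide (VCD, 160 mg/kg/day by intraperitoneal injection for 15 days), which destroys small ovarian follicles and models menopause. On control food with DMSO were VCD_Vehicle, VCD_E2 (a daily 1 µg per animal over 1 week), VCD_E2_P4 (the same plus a daily 1 mg of progesterone, P4) and VCD_E2_ICI (the same E2 plus 5 mg, given once, of the estrogen receptor degrader ICI). VCD_Low_PBDE, VCD_Low_E2 and VCD_Low_E2_P4 received polybrominated diphenyl ethers (PBDE-47, PBDE-100 and PBDE-153 at 0.05, 0.0028 and 0.0063 mg/kg/day) for 20 weeks, with no hormone, E2 and E2 + P4. VCD_High_PBDE, VCD_High_PBDE_E2 and VCD_High_PBDE_E2_P4 received 1, 0.056 and 0.126 mg/kg/day of the same compounds for 1 week, and the effect of the dose cannot be told apart from that of the duration. VCD_Vehicle_NormEnv was another vehicle group, with possible PBDE exposure from plastic cages. The number of mice behind a library is not given in the sources used here.

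Mrgprg encodes an orphan receptor of the Mas-related G protein-coupled receptor family, whose better known members act in sensory neurons and mast cells. Itgb7 encodes integrin β7, which reaches the cell surface paired with integrin α4 or αE and is known from lymphocytes that home to the gut and stay in epithelia. Daglb encodes diacylglycerol lipase β, an enzyme that makes the endocannabinoid 2-arachidonoylglycerol and is known from macrophages and microglia. Fibroblasts that carry Dpp4 and Pi16 lie in the outer connective tissue of many organs and are regarded as a progenitor-like population. E2 acts through estrogen receptors that bind DNA at a palindrome of GGTCA and TGACC with 3 bases between them, at a single arm of it or by way of other factors.

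The 3 genes lie on different chromosomes (GRCm38, GENCODE M21). Mrgprg (ENSMUSG00000050276) spans 143763710 to 143766993 on the minus strand of chromosome 7, with its family member Mrgpre 11369 bases away. Itgb7 (ENSMUSG00000001281) spans 102215995 to 102231944 on the minus strand of chromosome 15. Daglb (ENSMUSG00000039206) spans 143464584 to 143505942 on the plus strand of chromosome 5, and its 3′ end overlaps that of Rac1, on the other strand, by 2309 bases. How the counting treated strand is not given in the sources used here, so Rac1 is given beside Daglb below.

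The 250 bases before each start site (RefSeq, GRCm38.p6, 5′ to 3′ on the strand of the gene) are shown as a description. Common regulation of the 3 genes was not tested. Capitals mark each single arm of the estrogen response element, GGTCA or its reverse complement TGACC. The regions are chr7:143766994-143767243 (Mrgprg, minus strand), chr15:102231936-102232185 (Itgb7, minus strand) and chr5:143464243-143464492 (Daglb, plus strand).
Mrgprg: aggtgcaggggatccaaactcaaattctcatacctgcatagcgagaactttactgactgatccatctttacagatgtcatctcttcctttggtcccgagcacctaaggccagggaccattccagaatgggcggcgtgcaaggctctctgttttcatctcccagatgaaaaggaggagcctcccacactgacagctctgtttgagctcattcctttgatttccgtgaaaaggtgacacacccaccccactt
Itgb7: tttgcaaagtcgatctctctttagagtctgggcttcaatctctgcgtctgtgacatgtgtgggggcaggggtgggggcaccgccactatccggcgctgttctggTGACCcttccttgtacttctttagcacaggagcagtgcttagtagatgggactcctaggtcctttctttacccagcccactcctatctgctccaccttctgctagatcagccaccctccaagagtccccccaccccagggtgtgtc
Daglb: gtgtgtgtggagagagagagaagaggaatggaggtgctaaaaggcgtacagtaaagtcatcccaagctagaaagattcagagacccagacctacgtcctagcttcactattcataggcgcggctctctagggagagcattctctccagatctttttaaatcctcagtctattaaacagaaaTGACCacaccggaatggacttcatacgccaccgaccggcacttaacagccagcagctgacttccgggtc
Itgb7 held 1 arm, 146 to 142 bases before its start, Daglb held 1, 69 to 65 bases before its start, and Mrgprg held 0. The RefSeq start used for Daglb lies upstream of its GENCODE start (143464584). A stretch of bases after the RefSeq start was found in 0 GENCODE transcripts of Daglb, 1 of Mrgprg and 2 of Itgb7. The position of the Daglb arm thus depends on the start taken. Searched on both strands in the same window, an arm was present in 35.2% of 32851 mouse promoters. The full palindrome was present in 0.0639% of them, and the progesterone or glucocorticoid element, GNACA and TGTNC with 3 bases between them, in 0.387%. Neither of the latter was found in the 3 windows.

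The 12 libraries held 58620 cell barcodes and 41737881 to 109224969 UMIs each. Of the barcodes, 46257 passed the filters, 274 of them being present in more than 1 library, with at most 15 shared by a pair. Dpp4 Pi16 fibroblasts were gated by collagen genes or Dcn, the absence of UMIs of epithelial, immune, endothelial and pericyte genes, and UMIs of both Dpp4 and Pi16. This gave 11842 cells, 678 to 1729 per library, with a median of 15268 to 23337 UMIs per cell. All 5 of their fixed markers (Dpp4 and Pi16, which define the gate, and Anxa3, Sema3c and Cd55, which do not) were highest in this gate among all named cell groups.

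Mrgprg was the member with the widest range in Dpp4 Pi16 fibroblasts. Without hormone it reached 100 CPM in VCD_Vehicle, 114 in VCD_Vehicle_NormEnv, 453 in VCD_Low_PBDE and 215 in VCD_High_PBDE. With E2 it was 13.0 CPM in VCD_E2, 46.4 in VCD_Low_E2 and 68.4 in VCD_High_PBDE_E2. With E2 + P4 it was 67.8 CPM in VCD_E2_P4, 14.7 in VCD_Low_E2_P4 and 19.9 in VCD_High_PBDE_E2_P4. The 6 hormone libraries all lay below the 4 without hormone. The log2 difference of the mean of E2 and E2 + P4 from no hormone was -2.64 (SE 0.72) in the fit over 9 libraries (no hormone, E2 and E2 + P4, each at no, low and high PBDE).

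Itgb7 had nearly the same level in all hormone libraries. Without hormone it reached 84.4 CPM in VCD_Vehicle, 102 in VCD_Vehicle_NormEnv, 165 in VCD_Low_PBDE and 195 in VCD_High_PBDE. With E2 it was 56.8, 63.1 and 69.5 CPM at no, low and high PBDE, and with E2 + P4 it was 63.2, 57.6 and 62.1 CPM. The hormone libraries were at 62.1 ± 4.57 CPM (mean ± SD, n = 6) and those without hormone at 137 ± 52.0 CPM (n = 4), and the groups did not overlap. The log2 difference was -1.22 (SE 0.19).

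Daglb followed the same order with an overlap. Without hormone it reached 162 CPM in VCD_Vehicle, 156 in VCD_Vehicle_NormEnv, 368 in VCD_Low_PBDE and 240 in VCD_High_PBDE. With E2 it was 61.6, 84.3 and 186 CPM at no, low and high PBDE, and with E2 + P4 it was 101, 67.4 and 87.4 CPM. VCD_High_PBDE_E2, at 186 CPM, lay above both vehicle libraries, and the other hormone libraries lay below every library without hormone. The log2 difference was -1.43 (SE 0.35). Rac1, which shares the 3′ end, was at 269 to 335 CPM without hormone and 236 to 288 CPM with hormone, with a log2 difference of -0.21 (SE 0.06) that missed the threshold (edgeR adjusted p = 0.054).

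For orientation, 701 of 12726 genes (5.51%) were called lower with E2 in these cells by edgeR's quasi-likelihood test at an adjusted p below 0.05, and 786 (6.18%) were called higher. For 442 genes (3.47%) all 6 hormone libraries lay below the 4 without hormone, and for 5.34% all lay above. Since the members were picked from this contrast, nothing is read from where they fall among these genes. VCD_Low_PBDE carried much of the size for Mrgprg and Daglb, whose log2 differences were -1.79 and -0.88 without it. That of Itgb7 was then -1.05, and without 1 library each it ranged from -1.55 to -1.03. Without VCD_Low_PBDE the number of genes called in either direction was 196 in place of 1487. Without VCD_E2_P4 the Mrgprg difference was -3.53, and without VCD_Vehicle it was -3.32.

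**Figure D1:**
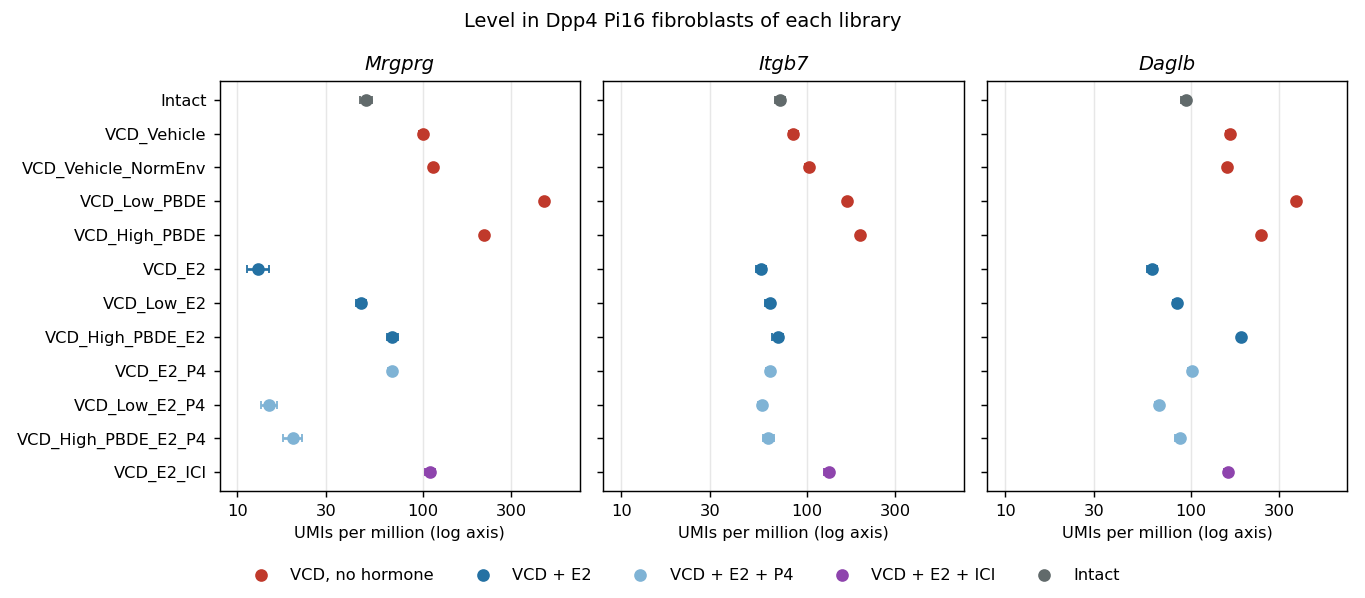
Level of Mrgprg, Itgb7 and Daglb in Dpp4 Pi16 fibroblasts of each of the 12 libraries, in CPM on a log axis. Points are libraries coloured by treatment, and bars are exact 95% Poisson intervals that cover counting error only. For Mrgprg the 4 red points (100 to 453) lie to the right of all 6 blue points (13.0 to 68.4), and VCD_E2_ICI (purple, 109) lies among the red ones.

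The difference within each PBDE level rests on 1 library per hormone level and describes the contrast that chose the members. Whether it differs between PBDE levels was not tested. On the log2(CPM + 1) scale, the mean of E2 and E2 + P4 minus no hormone was -1.70, -4.05 and -2.50 for Mrgprg at no, low and high PBDE. It was -0.49, -1.44 and -1.55 for Itgb7 and -1.03, -2.27 and -0.90 for Daglb. All 9 values were negative. The deposited names of the libraries also carry 2 different suffixes, whose meaning is not given in the sources used here. Within a PBDE level the suffix differs only between VCD_Low_PBDE and the other low PBDE libraries, so that the suffix as a term gave the same values as leaving out VCD_Low_PBDE (-1.79, -1.05 and -0.88).

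VCD_E2_ICI and Intact lay outside this layout with 1 library each, and intervals for them cover counting error only. In VCD_E2_ICI, where the estrogen receptor degrader was given with E2, Mrgprg was at 109 CPM, 8.41 times its level in VCD_E2 (95% interval 7.28 to 9.76). Itgb7 was at 131 CPM, 2.31 times VCD_E2 (2.12 to 2.51), and Daglb at 158 CPM, 2.57 times VCD_E2 (2.38 to 2.78). VCD_E2 is among the libraries whose low values chose the members and was the lowest of the 6 hormone libraries for each of them, so these ratios are descriptions. The highest hormone libraries were at 68.4 CPM of Mrgprg, 69.5 of Itgb7 and 186 of Daglb, the last being above VCD_E2_ICI. Against VCD_Vehicle the ratios were 1.09, 1.55 and 0.979 for Mrgprg, Itgb7 and Daglb, so that the levels of Mrgprg and Daglb were close to those of the vehicle library. Pgr, the progesterone receptor gene and a classical estrogen target, was at 3.12 CPM in VCD_E2_ICI and 20.6 CPM in VCD_E2, a ratio of 0.152 (0.103 to 0.217). Its ratio to VCD_Vehicle was 0.107 (0.0724 to 0.152), so it lay far below the vehicle library as well. Summed macrophage markers (5 genes) in the Dpp4 Pi16 gate were at 27.4 CPM in VCD_E2_ICI against 2.53 to 11.6 CPM in the other 11 libraries, and their part in these ratios was not tested.

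In the Intact library, from mice given no VCD, all 3 members lay below VCD_Vehicle. Mrgprg was at 49.5 CPM, 0.495 times VCD_Vehicle (0.451 to 0.541), Itgb7 at 71.99 CPM, 0.853 times (0.785 to 0.928), and Daglb at 93.7 CPM, 0.579 times (0.541 to 0.620). Mrgprg and Daglb in Intact were within the range of the 6 hormone libraries, and Itgb7 was just above its highest, 69.5 CPM. Pgr was at 51.0 CPM in Intact and 29.3 CPM in VCD_Vehicle, 1.74 times higher (1.54 to 1.97), and Greb1, another estrogen target, at 20.5 and 12.5 CPM.

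Taken over E2 and E2 + P4 together, the levels of these estrogen targets did not separate the hormone libraries of the layout from the others. Pgr was at 8.09 to 29.3 CPM in the 4 libraries without hormone and 6.43 to 44.6 CPM in the 6 with hormone, so the groups overlapped. With E2 alone it was lower than without hormone at no PBDE (20.6 against 29.3 CPM) and higher at low PBDE (44.6 against 8.09) and high PBDE (33.4 against 15.4). Greb1 with E2 alone was at 13.3, 33.9 and 16.2 CPM at no, low and high PBDE, against 12.5, 3.44 and 5.65 CPM without hormone. With E2 + P4, Greb1 was at 6.52, 5.17 and 11.0 CPM and Pgr at 9.78, 6.43 and 16.4 CPM, each below E2 alone. The test takes the mean of E2 and E2 + P4. Esr1, the estrogen receptor α gene, was at 64.9 to 95.2 CPM without hormone and 66.2 to 98.9 CPM with hormone. Neither Pgr (log2 difference 0.17, SE 0.44, edgeR adjusted p = 0.828), Greb1 (0.87, SE 0.51, adjusted p = 0.287) nor Esr1 (0.04, SE 0.11, adjusted p = 0.825) passed the test.

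The fitted P4 and PBDE contrasts in Dpp4 Pi16 fibroblasts were not used to choose the members and could be tested. P4 added to E2 gave log2 differences of -0.02 (SE 0.95, edgeR adjusted p = 0.997) for Mrgprg, 0.06 (SE 0.23, adjusted p = 0.956) for Itgb7 and -0.15 (SE 0.42, adjusted p = 0.935) for Daglb. Behind these small means stood values of opposite sign: E2 + P4 minus E2 was 2.30 at no PBDE, -1.59 at low PBDE and -1.73 at high PBDE for Mrgprg. edgeR called 0 of 12726 genes for P4, where 1217 had an unadjusted p below 0.05 and DESeq2 called 34 lower and 95 higher.

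Without hormone, the members are compared between PBDE levels as a description, with 1 library per dose, since these are the libraries whose high values helped to choose them. Mrgprg was 4.53 times higher in VCD_Low_PBDE than in VCD_Vehicle (4.29 to 4.78, counting error only) and 2.14 times higher in VCD_High_PBDE. Itgb7 was 1.96 and 2.31 times higher, and Daglb 2.28 and 1.48 times higher. Fitted over the 3 hormone levels, low PBDE gave 0.47 (SE 0.95, edgeR adjusted p = 0.968) for Mrgprg, 0.32 (SE 0.23, 0.921) for Itgb7 and 0.37 (SE 0.41, 0.940) for Daglb. High PBDE gave 0.26 (SE 0.93, adjusted p = 0.901), 0.45 (SE 0.23, 0.313) and 0.63 (SE 0.42, 0.433) in the same order. None of these 6 values passed the test. Over the alternatives other than left-out libraries, low PBDE reached 1.81, 0.64 and 1.30 and high PBDE 2.55, 0.95 and 2.10, also without passing. For low PBDE edgeR called 0 genes (635 at an unadjusted p below 0.05, and 6 lower and 3 higher by DESeq2), and for high PBDE it called 20 (0.157%), of which 0.11% of all genes were lower and 0.0471% higher, with 2596 at an unadjusted p below 0.05.

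The share of cells in which a member was found and the amount per cell were separated by thinning each cell to 5000 UMIs, which left 11240 of the 11842 Dpp4 Pi16 cells. Without hormone, Mrgprg was found in 18.7% of cells in VCD_Vehicle, 23.6% in VCD_Vehicle_NormEnv, 40.2% in VCD_High_PBDE and 56.8% in VCD_Low_PBDE. With hormone it was found in 4.81% to 13.3% of cells. Intact had 10.3% and VCD_E2_ICI 25.3%. Before thinning, 30.1% of all Dpp4 Pi16 cells held a Mrgprg UMI, against 0.673% of macrophages, a type not known for this gene, at median depths of 18494.5 and 11256 UMIs. Itgb7 was found in 25.9% to 45.5% of thinned cells without hormone and 17.2% to 21.8% with hormone, and Daglb in 44.98% to 63.9% and 24.0% to 46.1%.

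The amount per positive cell differed less evenly. Thinned cells with a Mrgprg UMI held on average 2.71 to 4.35 UMIs of it in the 4 libraries without hormone and 1.53 to 3.94 in the 6 with hormone. The highest of the latter was VCD_E2_P4, where 7.79% of cells were positive, with up to 30 UMIs in 1 cell. The top 5% of cells held 70.9% to 100% of the Mrgprg UMIs in the 6 hormone libraries, where few cells were positive, and 28.8% to 62.1% in the 4 without hormone. Positive cells held 1.69 to 2.12 UMIs of Itgb7 without hormone and 1.49 to 1.79 with hormone.

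**Figure D2:**
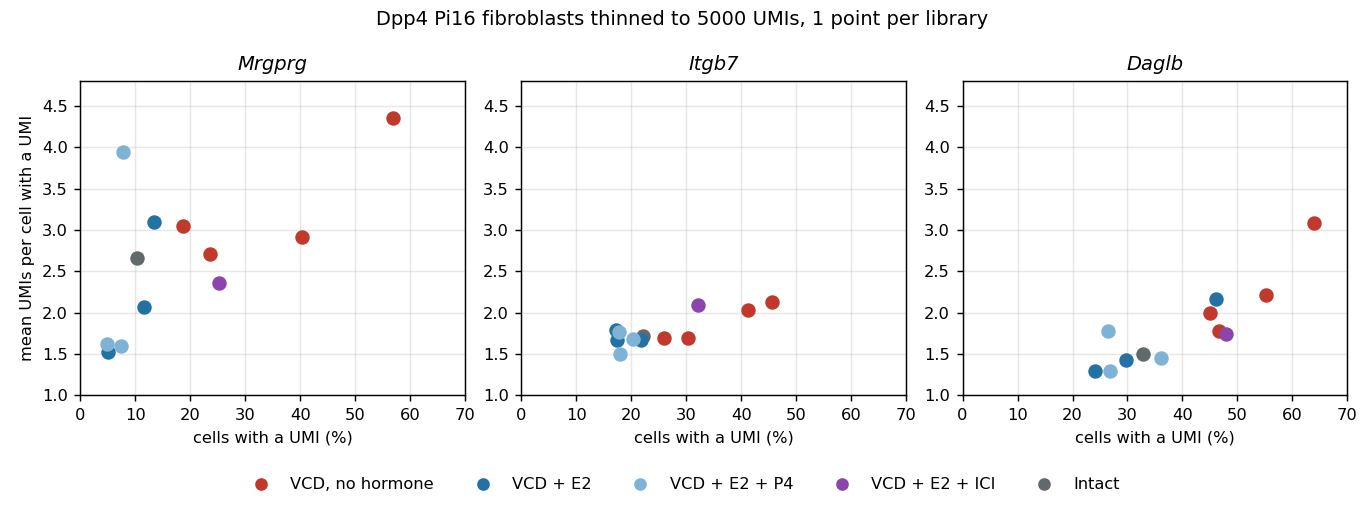
Share of Dpp4 Pi16 fibroblasts with at least 1 UMI of each member (x axis, %) and mean UMIs of it per cell with a UMI (y axis), in cells thinned to 5000 UMIs, with 1 point per library coloured by treatment. The red libraries without hormone lie at higher shares than the blue hormone libraries for Mrgprg and Itgb7, and 1 light blue library, VCD_E2_P4, has a Mrgprg share of 7.79% with 3.94 UMIs per positive cell.

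The members went together within libraries. In each of the 12 libraries, cells with Mrgprg held more Daglb than cells without it, by a median of 2.89 times over libraries (range 2.35 to 7.83), and more Itgb7, by 2.22 times (1.61 to 2.69). All 3 members were found together in 23.0% of thinned cells of VCD_Low_PBDE, 15.9% of VCD_High_PBDE, 6.46% of VCD_Vehicle_NormEnv and 5.97% of VCD_Vehicle, and in 0.7102% (VCD_E2) to 4.01% (VCD_High_PBDE_E2) of the 6 hormone libraries. These shares also depend on the share of cells with each single member, which differed between libraries. The share expected from the single shares was not determined. Rac1 was 1.12 times higher in cells with Mrgprg (0.956 to 1.43, higher in 11 of 12 libraries). Cells of 1 library are not replicates, and these ratios are descriptions.

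Cells with Mrgprg also held more Krtdap and Dmkn, which encode secreted proteins known from stratified epithelium, by medians of 2.09 and 2.01 times, and more Cldn3, a tight junction gene, by 2.83 times, Bmp3, a BMP family gene, by 2.27 times and Pi16 by 1.52 times, each in 12 of 12 libraries. Dpp4 was higher in 6 of 12 libraries (median 1.02 times), and Pgr was lower in 12 of 12 (median 0.449 times). Cilp and Mgp were lower in 12 of 12 as well, by medians of 0.0198 and 0.0790 times. Cilp was found in 0% to 2.78% of cells with Mrgprg and 1.49% to 19.3% of those without, and Mgp in 0% to 6.02% and 3.64% to 14.8%. These genes were chosen after their values were seen.

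The levels of the members were also read in cells with and without Krtdap or Dmkn. In cells with either gene, Mrgprg was at 186 to 662 CPM without hormone and 24.2 to 165 CPM with hormone, and in cells with neither it was at 91.6 to 390 and 3.47 to 47.3 CPM. The share of cells with Krtdap or Dmkn was 21.3% to 49.1% without hormone and 29.8% to 42.8% with hormone. Itgb7 was 2.12 to 9.78 times higher in them in all 12 libraries, at 171 to 284 CPM without hormone and 99.6 to 156 CPM with hormone, and in the rest at 62.4 to 116 and 12.9 to 40.7 CPM. For these 2 genes the libraries with and without hormone did not overlap in either class of cells. For Daglb they overlapped in both, at 219 to 515 and 82.3 to 314 CPM in cells with either gene and 146 to 317 and 44.7 to 151 CPM in the rest. The split divides the cells and libraries that chose the members, so these values are descriptions. The share of all genes without overlap in each class was not determined.

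Cells with the interferon-induced genes Ifit3 or Isg15 made up 6.62% to 23.5% of Dpp4 Pi16 fibroblasts without hormone and 29.5% to 48.8% with hormone. Mrgprg was lower in such cells in 12 of 12 libraries (median 0.714 times), and so was Daglb (0.804 times). Itgb7 was lower in 9 of 12 and higher in 3 (median 0.870 times). In cells without either gene, Mrgprg was at 121 to 510 CPM without hormone and 16.9 to 83.7 CPM with hormone, Itgb7 at 92.2 to 187 and 57.0 to 78.0 CPM, and Daglb at 183 to 398 and 68.1 to 210 CPM. In cells with either gene, Mrgprg was at 59.1 to 274 and 8.46 to 79.6 CPM, Itgb7 at 70.5 to 222 and 38.5 to 66.99 CPM, and Daglb at 111 to 332 and 55.6 to 175 CPM. The libraries with and without hormone thus overlapped for Daglb in both classes and for Mrgprg in cells with either gene. The split into cells with and without these genes was chosen after the data were seen. It also divides the cells that chose the members, so these values are descriptions.

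Markers of other cells were examined in the Dpp4 Pi16 gate. The 3 markers of Cilp Myoc fibroblasts summed to 5918 to 7674 CPM without hormone and 4047 to 5593 CPM with hormone. Most of this sum was Igfbp5, itself highest in the Dpp4 Pi16 gate (4616 to 6725 and 3565 to 5045 CPM), while Myoc was at 462 to 1428 CPM without hormone and 188 to 876 CPM with hormone and Cilp at 9.30 to 12.4 and 10.49 to 218 CPM. The 4 Fabp4 markers summed to 253 to 391 and 358 to 503 CPM, the 4 Tnc markers to 326 to 529 and 418 to 704 CPM, and the 4 Gdf10 F3 markers to 35.6 to 68.6 and 45.9 to 85.6 CPM, with Tnc itself at 0.246 to 0.743 and 0.552 to 1.34 CPM. The part of these fibroblast markers in the differences of the members was not tested. The 3 T cell markers, which bear on Itgb7, summed to 0.430 to 1.14 CPM without hormone and 0.528 to 1.26 CPM with hormone, and so were near 0. Markers of innate lymphoid, dendritic, natural killer and B cells, where Itgb7 was also high, were not summed here. Macrophage markers, which bear on Daglb, summed to 2.53 to 4.85 and 3.39 to 11.6 CPM. The 3 luminal markers summed to 0.123 to 2.78 and 0.793 to 6.89 CPM, with Epcam, which the gate leaves out, at 0 in all 12 libraries, and the adipocyte markers were at most 0.246 CPM. Their part in the differences was not tested either.

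Across cell groups the 3 genes parted company. Mrgprg was at 120 CPM in Dpp4 Pi16 fibroblasts of all libraries together (13.0 to 453 over libraries), and at 0.676 CPM in Fabp4 fibroblasts, 1.29 in Tnc, 0.428 in Gdf10 F3 and 0.261 in Cilp Myoc fibroblasts. It was higher in the Dpp4 Pi16 gate than in the Fabp4, Tnc and Gdf10 F3 gates in 12 of 12 libraries, by medians of 5.72, 5.65 and 5.88 on the log2(CPM + 1) scale. In immune cells as a whole it was at 0.783 CPM, and it was at 0 UMIs in 104 endothelial and 133 luminal epithelial cells, where 3 UMIs, the limit taken for a count of 0, correspond to 1.68 and 0.864 CPM. How much of these low values is free RNA from other cells was not tested. The 3151 cells that met several fibroblast gates, and so were left out of each, were at 328 CPM of Dpp4 and 1565 CPM of Pi16. In them Mrgprg was at 14.7 CPM, Itgb7 at 14.5 CPM and Daglb at 45.6 CPM.

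Itgb7 had a second and higher territory in immune cells. It was at 486 CPM in innate lymphoid cells (268 to 594 over 7 libraries), 416 in CD4 T cells (343 to 524, 10 libraries), 410 in dendritic cells (344 to 490, 9 libraries), 236 in natural killer cells (167 to 361), 220 in CD8 T cells (162 to 381) and 114 in B cells. The 49 mast cells, fewer than 20 in each library, were at 216 CPM (165 to 279, counting error only). Neighbours in this order overlapped in their ranges over libraries down to CD8 T cells, and all 5 of these groups lay above B cells (110 to 112 in 2 libraries). Dpp4 Pi16 fibroblasts were at 94.2 CPM (56.8 to 195), a range that held that of B cells, and macrophages with 25.2 (6.98 to 45.9), which did not overlap it. The other fibroblast gates were at 1.04 to 1.82 CPM, below Dpp4 Pi16 fibroblasts in 12 of 12 libraries for the Fabp4, Tnc and Gdf10 F3 gates. In all 12 libraries the immune cells as a whole were above the Dpp4 Pi16 gate, by a median log2 of 1.73.

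Daglb was at 153 CPM in Dpp4 Pi16 fibroblasts (61.6 to 368) and 117 CPM in macrophages (80.9 to 150). The fibroblasts were higher in 6 of 12 libraries, namely the 4 without hormone, VCD_High_PBDE_E2 and VCD_E2_ICI. They were lower in Intact and the other hormone libraries, so this split largely follows the contrast that chose Daglb. Daglb was at 12.04 to 22.7 CPM in the 4 other fibroblast gates, at 25.9 in dendritic cells and at 14.3 to 33.4 in T, natural killer, innate lymphoid and B cells. The ranges of these lower groups over libraries overlapped, except those of B cells (3.28 to 17.5) and dendritic cells (18.6 to 36.8). Dpp4 Pi16 fibroblasts were above the Fabp4, Tnc and Gdf10 F3 gates in 12 of 12 libraries, by medians of 2.75, 3.38 and 2.74 on the log2(CPM + 1) scale.

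**Figure D3:**
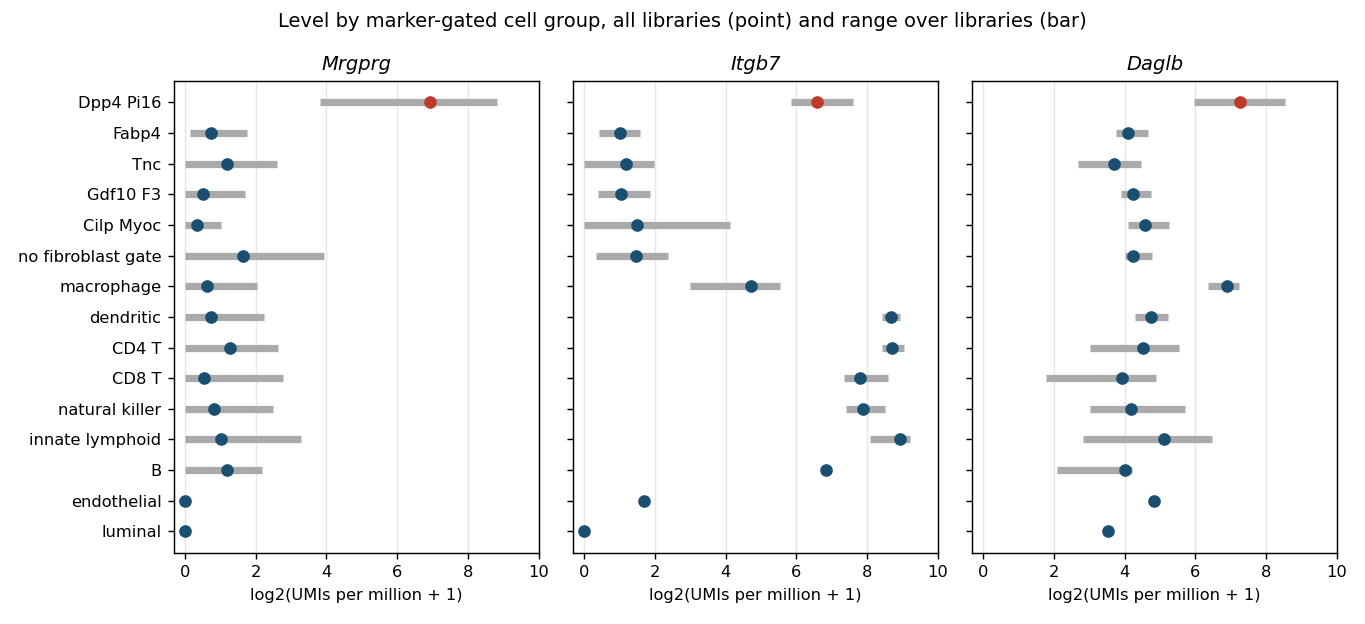
Level of each member in 15 marker-gated cell groups, as log2(CPM + 1). Points are all libraries together, and grey bars span the lowest to the highest library with at least 20 cells of the group, drawn where 2 or more libraries had them. Mrgprg stands out in Dpp4 Pi16 fibroblasts (120 CPM), Itgb7 also in lymphoid and dendritic cells (up to 486), and Daglb also in macrophages (117).

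Whether E2 went with lower levels elsewhere in the same libraries was tested where each of the 9 libraries had at least 20 cells of a group and the gene passed the filter on low counts. Mrgprg passed in none of the other groups. Daglb fell in Tnc fibroblasts, named for the matrix protein tenascin C: it was at 17.3, 20.3 and 21.02 CPM without hormone at no, low and high PBDE, at 9.63, 10.4 and 9.30 CPM with E2, and at 7.64, 11.2 and 5.48 CPM with E2 + P4. The groups did not overlap, although single libraries held only 5 to 32 Daglb UMIs in 35 to 205 Tnc cells. The share of all genes without overlap in this gate was not determined. The log2 difference was -1.18 (SE 0.26, edgeR adjusted p = 0.0036), in a gate where 15% of 9352 genes were called lower, 14.1% higher and 29.1% either way. The call held without each library in turn (-1.28 to -1.08, adjusted p 0.0042 to 0.044). Tnc cells held more UMIs per cell in each hormone library than in those without hormone. In VCD_Vehicle 205 cells held 1850179 UMIs, and in VCD_E2 67 cells held 1349494. Pi16 was at 39.1 to 168 CPM in Tnc cells over libraries. The part of depth and of RNA from Dpp4 Pi16 cells in the Daglb difference was not tested.

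In Fabp4 fibroblasts, where 7.34% of genes were called lower and 7.91% higher (15.2% in all), the log2 difference of Daglb was -0.26 (SE 0.14, edgeR adjusted p = 0.251). In Gdf10 F3 fibroblasts (1.07% lower, 1.96% higher, 3.03% in all) it was 0.25 (SE 0.17, adjusted p = 0.484). In all immune cells it was 0.21 (SE 0.20, edgeR adjusted p = 0.790). In macrophages (0.0726% lower, 0.305% higher, 0.377% in all) it was 0.25 (SE 0.19, adjusted p = 0.674). Without 1 library each, the Daglb difference ranged from -0.44 to -0.08 in Fabp4 fibroblasts, 0.11 to 0.51 in Gdf10 F3 fibroblasts and 0.08 to 0.56 in macrophages. The E2 difference in Tnc fibroblasts was lower than the mean of that in the Fabp4 and Gdf10 F3 gates by -1.24 (SE 0.28, edgeR adjusted p = 0.0031, library as a block). Such a difference was called for 19.1% of 11403 genes. This test was added after the values were seen, and it passed without each library in turn (-1.35 to -1.13, adjusted p 0.0030 to 0.040).

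Itgb7 could be tested in Fabp4 fibroblasts (-0.42, SE 0.47, edgeR adjusted p = 0.581), in all immune cells (-0.30, SE 0.12, adjusted p = 0.515) and in macrophages (-0.36, SE 0.40, adjusted p = 0.783), and did not pass in any of them. Without 1 library each these ranged from -0.92 to -0.04, -0.38 to -0.19 and -0.78 to -0.09. The macrophage share of immune cells differed between libraries, from 38 of 453 cells in VCD_Vehicle to 85 of 287 in VCD_High_PBDE_E2_P4 over the layout. The part of this mix in the Itgb7 and Daglb differences of all immune cells was not tested. For E2 in immune cells edgeR called 0 of 11409 genes, where 1021 had an unadjusted p below 0.05 and DESeq2 called 7 lower and 65 higher. Groups with fewer than 20 cells in a library, among them Cilp Myoc fibroblasts, T cells, natural killer cells and dendritic cells, were not fitted.

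**Figure D4:**
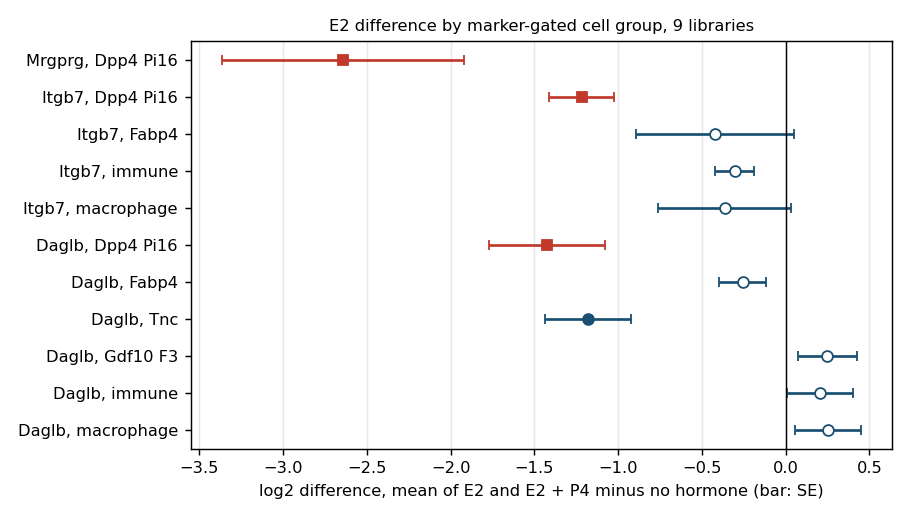
Log2 difference of the mean of E2 and E2 + P4 from no hormone, with its SE, for each member and marker-gated cell group that could be fitted over the 9 libraries. Red squares are Dpp4 Pi16 fibroblasts, the contrast that chose the genes, the filled circle passed edgeR's test (Daglb in Tnc fibroblasts, -1.18) and open circles did not.

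Genes that act with the members were read in the same E2 contrast in Dpp4 Pi16 fibroblasts. The α chains that pair with integrin β7 were nearly absent there: Itga4 was at 0.450 CPM and Itgae at 0.132 CPM, against 184 and 2.33 CPM in CD4 T cells and 250 and 25.0 CPM in CD8 T cells. Of 30 integrin genes and partners, 20 passed the filter, 1 rose and 3 fell, so that 4 of 20 were called beside 11.7% of all genes tested. Of these, Vcam1 alone passed under every alternative run. Without VCD_Vehicle, VCD_Low_PBDE, VCD_Low_E2, VCD_Low_E2_P4 or VCD_High_PBDE_E2_P4 it was the 1 gene of the list called, and without VCD_E2 or VCD_High_PBDE Itga11 was called with it. Vcam1, a ligand of α4 integrins, rose by 0.64 (SE 0.07, edgeR adjusted p = 0.0054) from 10.8 to 17.7 CPM without hormone to 13.6 to 30.2 CPM with hormone. Itga11, a collagen-binding α chain, fell by 0.57 (SE 0.12, adjusted p = 0.023), Itga9, which binds tenascin, by 0.41 (SE 0.10, adjusted p = 0.041) and Fn1, fibronectin, by 0.32 (SE 0.07, adjusted p = 0.032). Itgb1, the β chain shared by most α chains, was at 216 to 250 CPM without and 220 to 285 CPM with hormone (0.08, SE 0.05, adjusted p = 0.339). The median log2 difference of the list was 0.09, against -0.0045 over all genes tested.

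Of 24 genes of endocannabinoid metabolism and reception, 18 passed the filter, 1 rose and 1 fell, which is near the 11.7% called among all genes tested. Neither passed by DESeq2, nor without VCD_Vehicle, VCD_E2, VCD_Low_PBDE, VCD_Low_E2, VCD_Low_E2_P4, VCD_High_PBDE or VCD_High_PBDE_E2_P4, where the adjusted p was up to 0.125 for Faah and 0.221 for Nceh1. Faah, which degrades anandamide, rose by 1.53 (SE 0.32, edgeR adjusted p = 0.024), at levels of only 0.184 to 0.403 CPM without hormone and 0.631 to 1.40 CPM with hormone. Nceh1, a serine hydrolase of cholesterol esters and ether lipids, fell by 0.45 (SE 0.11, adjusted p = 0.042). Dagla, the other diacylglycerol lipase, was at 3.09 to 4.54 CPM without hormone and 2.36 to 3.99 CPM with hormone (-0.46, SE 0.20, adjusted p = 0.175). Mgll, the main enzyme that breaks 2-arachidonoylglycerol down, was at 207 CPM in Dpp4 Pi16 fibroblasts and 2.91 to 56.3 CPM in the other fibroblast gates, and its E2 difference was -0.08 (SE 0.08, adjusted p = 0.563). Abhd6, which also hydrolyses it, had a difference of 0.01 (SE 0.14, adjusted p = 0.986). The cannabinoid receptor genes Cnr1 and Cnr2 stayed at or below 0.134 CPM in the libraries with and without hormone. The median log2 difference of the list was -0.05.

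Of 18 other Mas-related receptor genes, only Mrgpre and Mrgprf passed the filter. Mrgpre, the neighbour of Mrgprg, fell by 0.71 (SE 0.18, edgeR adjusted p = 0.046), from 6.45 to 9.76 CPM without hormone to 3.91 to 6.94 CPM with hormone. This call was lost without VCD_E2, VCD_Low_PBDE, VCD_Low_E2, VCD_Low_E2_P4, VCD_High_PBDE or VCD_High_PBDE_E2_P4 (adjusted p up to 0.242). Like Mrgprg it was highest in Dpp4 Pi16 fibroblasts among fibroblast gates, at 6.73 CPM against 0.692 to 2.84 CPM. Mrgprf was at 20.0 CPM in Dpp4 Pi16 and also in Fabp4 fibroblasts (20.0 CPM), with a difference of 0.01 (SE 0.18, adjusted p = 0.985). The remaining 16 were at or below 0.831 CPM.

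**Figure D5:**
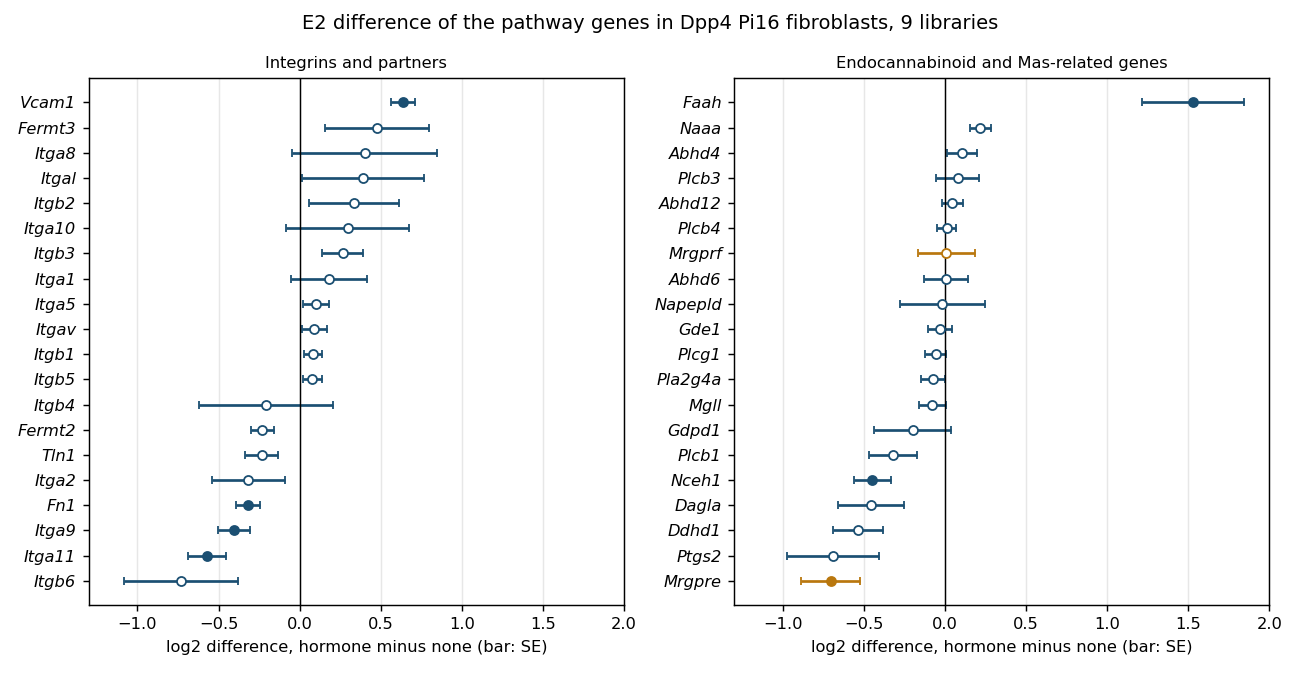
Log2 difference of hormone (mean of E2 and E2 + P4) minus no hormone, with its SE, for the genes of the 3 lists that passed the filter in Dpp4 Pi16 fibroblasts (Mas-related receptors in orange). Filled points passed edgeR's test at an adjusted p below 0.05: Vcam1 and Faah were higher, and Itga9, Itga11, Fn1, Nceh1 and Mrgpre were lower.

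The genes most like each member were sought by Pearson correlation of log2(CPM + 1), as descriptions over points that share libraries and depth. Across the 12 libraries in Dpp4 Pi16 fibroblasts, the members correlated with each other at 0.94 (Mrgprg and Daglb), 0.87 (Mrgprg and Itgb7) and 0.86 (Itgb7 and Daglb). Among the genes most like Mrgprg were Clstn1 (0.91), Sdpr, Synrg and Sema4c (0.89). Most like Itgb7 were Chst1, Bag1, Sema3e, Map1lc3a and Ik (0.93 for each of these 5). Most like Daglb were Sdpr (0.98), Il33, an alarmin gene, Omd, Duoxa1 and Fzd8 (0.92). The members and several of these genes were lower with E2, so the correlations largely restate the contrast that chose the members.

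Across 15 cell groups the order was different for each member. Most like Mrgprg were Krtdap (0.97), Gabra2, Gpr1, Pi16, which defines the gate, and Adamts16 (0.92). Most like Itgb7 were Kif21b (0.96), Cyld, Hmha1, D16Ertd472e and Fmnl1 (0.92), whose highest levels were in lymphoid groups. Most like Daglb were Opa3 (0.82), Ptgs1, Npepl1, Abi1 and 1700003F12Rik (0.78). Between members the correlation over cell groups was 0.64 for Mrgprg and Daglb, 0.29 for Itgb7 and Daglb and 0.25 for Mrgprg and Itgb7.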

How the data were processed

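Single cells of mammary glands freed of lymph nodes were sequenced on the Chromium v3 platform for 12 groups of mice, each with 1 library. The authors deposited raw UMI counts in matrices of genes by barcodes without normalization, for which the submitters' processing notes name Cell Ranger 3.1.0 and mm10. Groups were taken from the sample labels, and the labels and the methods name different sequencers.

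Kept cells had 500 genes or more, 1000 UMIs or more and a mitochondrial share of up to 5%. Fibroblasts lacked UMIs of Cspg4, Pecam1, Cd52, Ptprc, Krt14 and Epcam and had at least 10 UMIs of Col1a1, Col1a2 and Dcn per 10000. The Dpp4 Pi16 gate required at least 3 UMIs of both genes together per 10000 and 1 of each. The Fabp4 gate required 5 per 10000, the Tnc gate 1 (with 2 UMIs), and the Gdf10 F3 and Cilp Myoc gates 3 with 1 UMI of each gene. Cells in several gates (3151) were left out, and 8482 cells had no class. Immune cells were named by fixed markers. No doublet caller was run, so doublets may remain. Free RNA was not removed.

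UMI counts were summed per library and gate, and given as CPM with exact 95% Poisson or Clopper-Pearson intervals, which cover counting error only. Tests used edgeR 4.0.16 (quasi-likelihood, TMM, filterByExpr, R 4.3.3) on 9 libraries with hormone and PBDE level as terms and 4 residual degrees of freedom, with Benjamini-Hochberg adjustment over all genes and a threshold of 0.05. SE was taken from the log2 difference and its F statistic. As each library is the only sample of its group, p-values measure the spread left by this additive model. The comparison of E2 differences between gates had library as a block in place of the PBDE term. It took E2 and E2 + P4 together as hormone and had 14 residual degrees of freedom. DESeq2 1.42.0, other gates, filters and left-out libraries were alternatives. The fit was tested on simulated counts. The genes named were the members, fixed partner genes, list genes that passed the test, and the 5 genes most like each member by correlation (mean of at least 10 CPM, groups of at least 100 cells), others being marked as chosen later. Of the 5 genes for Mrgprg, 1 is not reported here. Of the T cell markers, 3 were counted. The members and lists were chosen with earlier results of these data known.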

Additional observations from a re-analysis of the deposited data

Results flagged for a closer look

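The level of Daglb in VCD_High_PBDE_E2 (186 CPM in Dpp4 Pi16 fibroblasts) stood apart from the other 5 hormone libraries by Dixon's test at the 95% level, which flags about 1 in 20 groups by chance. Mrgprg and Itgb7 were also highest of the 6 in this library (68.4 and 69.5 CPM) without standing apart.

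The difference of E2 + P4 from E2 had opposite signs at different PBDE levels, on the log2(CPM + 1) scale and with 1 library per value, and this was not tested. At no, low and high PBDE it was 2.30, -1.59 and -1.73 for Mrgprg, 0.15, -0.13 and -0.16 for Itgb7 and 0.71, -0.32 and -1.08 for Daglb. The differences for Itgb7 are small.

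The same 9 libraries gave opposite signs for PBDE, also untested. Low PBDE minus none was 2.17 without hormone, 1.76 with E2 and -2.13 with E2 + P4 for Mrgprg, 0.96, 0.15 and -0.13 for Itgb7 and 1.18, 0.45 and -0.58 for Daglb. High PBDE minus none was 1.09, 2.31 and -1.72 for Mrgprg, 1.20, 0.29 and -0.024 for Itgb7 and 0.56, 1.58 and -0.21 for Daglb. At both doses the values with E2 + P4 were negative and the others positive. Each is a difference from 1 library: VCD_Vehicle without hormone, VCD_E2 with E2 and VCD_E2_P4 with E2 + P4.

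The E2 difference of Daglb in Tnc fibroblasts was below the mean of that in Fabp4 and Gdf10 F3 fibroblasts by a difference of -1.24 (edgeR adjusted p = 0.0031, 19.1% of 11403 genes called), in a test added after the values were seen. Against Fabp4 alone it was -0.998 (adjusted p = 0.025, 13.2% of genes called) and against Gdf10 F3 alone -1.49 (adjusted p = 0.0017, 18.7% called).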

How the results depend on the processing

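The E2 differences of Mrgprg, Itgb7 and Daglb in Dpp4 Pi16 fibroblasts kept their sign under every alternative run, from -3.53 to -1.79, -1.55 to -1.03 and -1.71 to -0.88 without 1 library each. The number of genes called for E2 there (1487) was 789 for E2 libraries without P4, 185 with the name suffix as a term, 785 in cells thinned to 5000 UMIs and 196 (without VCD_Low_PBDE) to 1493 without 1 library each. It also moved by over 1.5 times without VCD_E2 (739), VCD_Low_E2 (694), VCD_Low_E2_P4 (578), VCD_High_PBDE (576) or VCD_High_PBDE_E2_P4 (715). Without 1 library each, called integrin genes (4) numbered 1 to 5, endocannabinoid genes (2) 0 to 2 and Mas-related genes (1) 0 to 1. With the suffix as a term they numbered 1, 0 and 0. Called endocannabinoid genes were 4 with VCD_Vehicle_NormEnv added, 1 by DESeq2 and 0 in thinned cells, and Mas-related genes 0 in thinned cells and 0 for E2 libraries without P4. The causes were not tested. Some values that passed no test changed sign. Mrgprg for P4 (-0.02) was 0.12 with VCD_Vehicle_NormEnv added, 0.022 with gate thresholds halved and 0.0030 with cells of several gates kept. Without 1 library each, P4 ranged from -1.62 to 0.85 (Mrgprg), -0.24 to 0.19 (Itgb7) and -0.69 to 0.39 (Daglb), low PBDE from -0.42 to 1.99, -0.019 to 0.60 and -0.18 to 0.91, high PBDE from -0.62 to 1.92 for Mrgprg, and E2 in all immune cells from -0.059 to 0.39 for Daglb. Others kept their sign, among them high PBDE for Itgb7 (0.11 to 0.73) and Daglb (0.12 to 1.18). No paired analysis was possible because each group has 1 sample and no replicate number links libraries. PBDE level was a term in each fit within a gate, and library was a block in its place where gates were compared. Cilp Myoc fibroblasts and immune types other than macrophages had too few cells in a library and were not fitted, and Daglb in thinned Tnc cells and Itgb7 in Fabp4 cells, thinned or with gate thresholds doubled, did not pass the filter. The smallest detectable change was not determined.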
